A study of Homo sapiens with 13 samples.

Results

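The photoreceptor and pineal genes examined here were 10 in number, out of 56831 genes in each of the 2 deposited tables: RBP3, CRX, OTX2, NRL, AANAT, ASMT, RCVRN, SAG, GNGT1 and PDE6B. They were found by gene symbol. RBP3 was chosen for its large fall in treated H82 cells and the others were grouped with it by function, so values from H82 treated against untreated are given for all 10 as a description, without a test. The study exposed small cell lung cancer (SCLC) lines to FHD-286, an allosteric inhibitor of SMARCA4 and SMARCA2, the ATPases of the BAF chromatin remodelling complex, at 100 nM for 14 days with fresh drug every 48 h. H82 (the NEUROD1 class of SCLC) had 3 untreated and 3 treated libraries, and H146 (the SCLC-A class) had 3 untreated and 4 treated libraries. Both lines were labelled wild type, and untreated cells received no drug. RNA levels were in TPM (transcript shares summing to 1000000 in each library), a share of each library corrected for gene length, and differences were taken as log2(TPM + 1) of treated minus untreated cells. TPM values keep no record of read depth, so depth behind each value is unknown, and error is given as the spread between libraries. Whether libraries of a group came from separate cultures is not stated in the sources used here, so that spread may be technical.

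Photoreceptors of the retina and pinealocytes of the pineal gland share an evolutionary origin and a set of genes. In both, the homeodomain factors OTX2 and CRX switch on this set, and in the retina NRL turns precursors towards the rod fate. The products serve capture of light by opsins, its relay through transducin and the PDE6 phosphodiesterase, and control of shut-off by recoverin and arrestin. RBP3 shuttles retinoids, whereas the pineal gland uses AANAT and ASMT to make melatonin. None of these programmes is a known task of lung epithelium.

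In untreated H82 cells 7 of the 10 genes exceeded 7 TPM in every library, and 4 of these were near the floor after FHD-286. RBP3, CRX, NRL and RCVRN went from levels between 8.52 and 253 TPM to below 1.35 TPM in every treated library, and AANAT was 2.29-fold lower. OTX2 stayed above 585 TPM. GNGT1 and PDE6B overlapped between the groups, SAG was below 0.44 TPM in all libraries and ASMT was listed at 0. In H146 cells RBP3, CRX, NRL, RCVRN, SAG and ASMT did not reach 1.2 TPM in any library, GNGT1 fell and PDE6B rose with treatment.

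**Figure D1:**
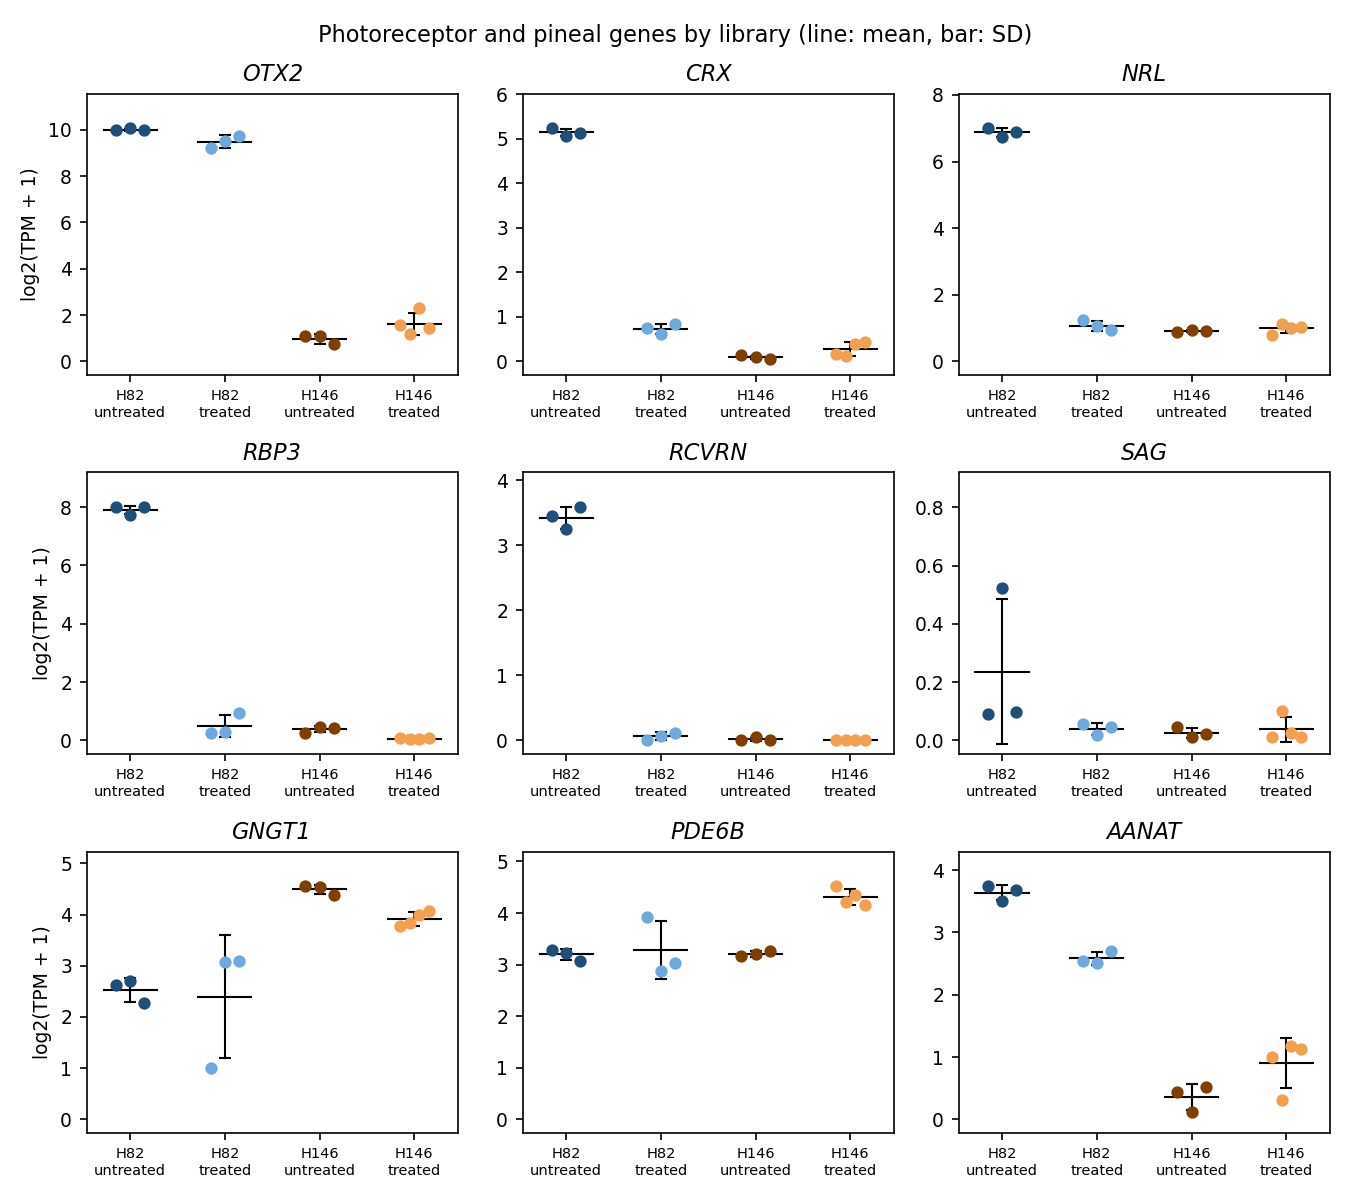
Levels of 9 of the 10 genes, as log2(TPM + 1), in each of the 13 libraries (points), with the group mean (line) and SD (bar). ASMT is left out because it was listed at 0 throughout. RBP3, CRX, NRL and RCVRN were high only in the 3 untreated H82 libraries, whereas OTX2 was high in all 6 H82 libraries.

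Some values of the whole series bear on these results. The median change over all genes tested was -0.56 in H82 and 0.25 in H146 on the log2 scale, and after scaling by median of ratios it was -0.11 and -0.03. Genes at 1 TPM or above numbered 21227 to 21772 in untreated and 15554 to 16633 in treated H82, and 17476 to 17965 against 18778 to 19309 in H146. Mitochondrial genes took 22.1% to 24.1% of untreated and 12.3% to 14.9% of treated H82 TPM. Among genes at 1 TPM or above in both libraries of a pair, treated H82 replicate 1 stood apart. Its correlation of log2 TPM, with nothing added, was 0.918 and 0.930 with replicates 2 and 3, which had 0.973 with each other. Treated replicate 2 stood apart in some markers, with EPCAM (an epithelial adhesion protein) at 32.8 TPM against 3.08 and 1.11 in the other treated libraries, and INSM1 (a neuroendocrine factor) at 296 against 32.1 and 33.9. The part of these features in the results was not tested, but the changes of RBP3, CRX, NRL and RCVRN in H82 were -7.30, -4.42, -5.89 and -3.33 without replicate 1 and -7.32, -4.35, -5.80 and -3.37 without replicate 2, against -7.41, -4.41, -5.81 and -3.37 with all libraries. In H146 mitochondrial genes took 7.56% to 8.86% of untreated and 3.82% to 11.4% of treated TPM. Treated H146 replicates 3 and 4 had a correlation of 0.988 with each other, taken as above. Treated H146 replicate 2 had 0.933 and 0.927 with them. The part of these H146 features was not tested. The RNA is bulk, so fewer cells carrying a transcript and less of it per cell cannot be told apart.

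Among the transcription factors, OTX2 lies at the top of the hierarchy and acts on the CRX gene in the retina (hg38, chr14:56799905-56816693, minus strand). It stood at 1004, 1067 and 1017 TPM in untreated H82 and at 586, 733 and 856 TPM in treated H82. Every treated library was below every untreated one, yet the log2 difference of -0.52 (SE 0.20, n = 3 and 3) was 0.04 higher than that median over all genes, and it was -0.03 after scaling by median of ratios and -1.004 after quantile normalization. In H146 OTX2 was at 1.12, 1.11 and 0.667 TPM untreated and 2.01, 1.27, 3.93 and 1.68 TPM treated. The treated H146 libraries were all higher, but the difference of 0.66 (SE 0.28) did not pass the limma test (adjusted p = 0.0795). The treated H146 libraries and the untreated ones at 1.12 and 1.11 TPM reached the 1 TPM of the filter on low values. The untreated libraries by themselves would not have carried OTX2 past this filter, which favours a rise. Without treated H146 replicate 2 the difference was 0.81 (limma adjusted p = 0.0258), under the same limit. That difference did not pass without any other library. OTX2 RNA was thus far more abundant in either state of H82 than in H146.

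CRX, the cone-rod homeobox factor that drives most photoreceptor genes (chr19:47819779-47843330, plus strand), was at 36.6, 32.6 and 33.9 TPM in untreated H82 and at 0.678, 0.533 and 0.788 TPM after treatment. The groups were far apart, with mean TPM 51.6-fold lower in treated cells and a log2 difference of -4.41 (SE 0.17). In H146 it was at 0.0967, 0.0641 and 0.0437 TPM untreated and at 0.128, 0.0889, 0.304 and 0.351 TPM treated, close to the floor in both (exact permutation test, two-sided, p = 0.114). Of all 5 H146 comparisons made with this exact test, none could reach below p = 0.0571. Their p-values are unadjusted unless said otherwise.

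NRL, the leucine zipper factor of rods (chr14:24078662-24115010, minus strand), was at 126, 106 and 118 TPM in H82 without the drug and at 1.34, 1.07 and 0.901 TPM with it. Mean TPM was 106-fold lower and the log2 difference was -5.81 (SE 0.16). The treated H82 level (1.10 ± 0.223 TPM, SD, n = 3) overlapped that of H146, which was at 0.837, 0.925 and 0.897 TPM untreated and at 0.741, 1.16, 0.999 and 1.06 TPM treated (exact permutation p = 0.457). Exons of NRL share 6.35% of their bases with DCAF11 on the opposite strand, and DCAF11 averaged 26.5 TPM in H82 without the drug and 21.1 TPM with it. Whether counting used strand is not stated in the sources used here, so a part of the low NRL values may be reads of DCAF11, and this was not tested.

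The core bound by OTX2 and CRX is TAATCC, which reads as GGATTA on the other strand, and 3 promoters show where these letters lie in genes that were high in untreated H82 and low after treatment. The sequences are RefSeq windows from 250 bases before to 50 bases after the start site (GRCh38.p14, each 5′ to 3′ along its gene), with the core in capitals. CRX is at chr19:47821687-47821986 on the plus strand and holds the core as GGATTA at -164 and -85. PDE6A, the rod PDE6 alpha subunit, is at chr5:149944744-149945043 on the minus strand and holds it at -72. CACNA1F, a calcium channel of the photoreceptor synapse, is at chrX:49233291-49233590 on the minus strand and holds it at -37. Positions count from the start site to the first base of the core as printed.
CRX: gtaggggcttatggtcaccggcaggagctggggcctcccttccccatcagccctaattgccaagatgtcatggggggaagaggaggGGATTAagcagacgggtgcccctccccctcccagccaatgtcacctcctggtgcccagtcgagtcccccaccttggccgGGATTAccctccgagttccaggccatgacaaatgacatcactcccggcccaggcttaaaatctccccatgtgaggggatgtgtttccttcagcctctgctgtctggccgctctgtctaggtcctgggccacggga
PDE6A: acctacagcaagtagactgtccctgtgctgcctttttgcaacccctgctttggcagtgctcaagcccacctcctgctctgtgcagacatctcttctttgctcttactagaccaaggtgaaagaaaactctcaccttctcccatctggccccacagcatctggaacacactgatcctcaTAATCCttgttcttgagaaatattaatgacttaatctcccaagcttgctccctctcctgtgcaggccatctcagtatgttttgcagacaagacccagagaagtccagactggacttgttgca
CACNA1F: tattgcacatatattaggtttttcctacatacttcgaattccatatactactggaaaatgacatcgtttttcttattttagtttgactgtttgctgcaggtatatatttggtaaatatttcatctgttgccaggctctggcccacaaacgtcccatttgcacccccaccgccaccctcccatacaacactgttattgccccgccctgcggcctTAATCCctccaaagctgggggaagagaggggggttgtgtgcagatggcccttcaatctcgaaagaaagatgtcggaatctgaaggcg

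Windows were found for 8 of the 10 genes, and not for RBP3 and RCVRN. The core was in the windows of CRX and SAG, that is 2 of 8, whereas 7.81% of 27305 genes with a window held it in at least 1 window. OTX2, NRL, GNGT1, PDE6B, AANAT and ASMT had no such letters in their windows. Of the other motifs sought, TGCTGA was in 4 of the 8 (50%) and CAGATG in 3 of the 8 (37.5%). Among 106 further photoreceptor and pineal genes described below, 12 of 28 with a window that were lower in treated H82 held the core (42.9%), against 9 of the other 56 (16.1%). For TGCTGA, a part of the NRL site, these shares were 6 of 28 (21.4%) and 15 of 56 (26.8%), with 20.5% over all genes. For CAGATG, an E-box bound by NEUROD1, they were 9 of 28 (32.1%) and 10 of 56 (17.9%), with 17.5% over all genes. The 66 list genes that were not lower, with or without a window, include 40 that did not enter the H82 fit. A gene counted if any of its windows held the motif. All 3 were sought on both strands, no test was made, and a match is not a bound site.

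RBP3 encodes interphotoreceptor retinoid-binding protein, which photoreceptors secrete into the space facing the pigment epithelium and which carries retinoids between both cell types (chr10:47348363-47357881, plus strand). It was at 253, 212 and 253 TPM in untreated H82 and at 0.196, 0.227 and 0.895 TPM in treated H82. This fall is what RBP3 was selected on. Mean TPM was 545-fold lower, and the log2 difference of -7.41 (SE 0.22) was -6.86 relative to the median of all genes. In H146, which the choice did not use, RBP3 was at 0.203, 0.359 and 0.347 TPM untreated and 0.0514, 0.0249, 0.0251 and 0.0468 TPM treated. Every treated H146 library was below every untreated one, on a level under 1 TPM throughout, with a log2 difference of -0.33 and an exact permutation p of 0.0571, the smallest this design allows. After Benjamini-Hochberg adjustment over the 5 genes so tested, this exact permutation p was 0.286. When low genes were kept in the fit the same difference passed (limma adjusted p = 0.00989), on levels of at most 0.359 TPM. The outcome thus depends on the filter and the test.

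Of the phototransduction genes, RCVRN encodes recoverin, a calcium sensor of photoreceptors (chr17:9896320-9905271, minus strand). It was at 9.91, 8.52 and 11.0 TPM in untreated H82 and at 0, 0.0475 and 0.0873 TPM after treatment, a log2 difference of -3.37 (SE 0.19). In H146 it was at 0.0328 TPM in untreated replicate 2 and listed at 0 in the other 6 libraries (exact permutation p = 0.857). Recoverin RNA was therefore above 0.1 TPM only in untreated H82. SAG, the rod arrestin that stops light signalling (chr2:233307816-233347055, plus strand), was low everywhere: 0.0645, 0.436 and 0.0689 TPM in untreated H82, 0.0402, 0.0117 and 0.0322 TPM in treated H82, 0.0325, 0.00807 and 0.0147 TPM in untreated H146, and 0.00924, 0.0717, 0.0181 and 0.00842 TPM in treated H146 (exact permutation p = 0.80). It did not enter the fit in either line.

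GNGT1, the gamma subunit of rod transducin (chr7:93591573-93911265, plus strand), did not follow RBP3. It was at 5.20, 5.49 and 3.82 TPM in untreated H82 and 1.01, 7.46 and 7.51 TPM in treated H82, so that treated replicate 1 was lowest of all 6 and the other 2 were highest. The log2 difference was -0.14 (SE 0.56), and 0.55 without treated replicate 1. It was also positive after scaling by median of ratios (0.24) and by quantiles (0.70). In H146 GNGT1 was at 22.4, 22.2 and 19.9 TPM untreated and 12.7, 13.2, 14.8 and 15.8 TPM treated. All treated H146 libraries were lower, by a log2 difference of -0.58 (SE 0.13, limma adjusted p = 0.00769).

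PDE6B, the beta subunit of the rod phosphodiesterase that hydrolyses cyclic GMP (chr4:625573-670782, plus strand), was at 8.79, 8.36 and 7.45 TPM in untreated H82 and at 14.1, 6.38 and 7.20 TPM in treated H82. Treated replicate 1 was again apart, this time high, and the difference of 0.08 (SE 0.29) became -0.24 without it. In H146 PDE6B was at 7.95, 8.19 and 8.58 TPM untreated and 21.9, 17.7, 19.5 and 16.8 TPM treated. It rose in every treated H146 library, with mean TPM 2.30-fold higher and a log2 difference of 1.10 (SE 0.14, limma adjusted p = 0.000473). The H146 calls of GNGT1 and PDE6B stood under both other scalings and without any 1 library. Exons of PDE6B share 13.9% of their bases with PDE6B-AS1, and those of GNGT1 1.91% with TFPI2, both on the opposite strand, so their reads cannot be told apart if strand was not used.

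Of the melatonin enzymes, AANAT acetylates serotonin and sets the nightly rhythm of melatonin (chr17:76453351-76470117, plus strand). It was at 12.3, 10.3 and 11.8 TPM in untreated H82 and at 4.80, 4.69 and 5.53 TPM in treated H82. Treated libraries were all lower, with a log2 difference of -1.05 (SE 0.17), which was -0.50 relative to the median of all genes, -0.62 after scaling by median of ratios and -0.31 after quantile normalization. In H146 it was at 0.353, 0.0876 and 0.439 TPM untreated and at 1.003, 0.243, 1.27 and 1.19 TPM treated, with overlap between the groups (log2 difference 0.55, SE 0.25, limma adjusted p = 0.106). Without treated replicate 2, the lowest treated library, the difference was 0.75 (limma adjusted p = 0.00918). AANAT did not pass without any other library, and it left the fit without treated replicate 1, 3 or 4. It passed the filter in H146 through its treated libraries alone, which favours a rise, so these p-values are no support for one. ASMT, which methylates N-acetylserotonin to melatonin, was listed at 0 in all 13 libraries. It lies in the pseudoautosomal region (chrX:1615059-1643081 and the matching stretch of Y), and 7 further genes of that region, among them SLC25A6 and CD99, which most cells use, were also listed at 0, so nothing can be said about ASMT levels.

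Counted together, 9 genes were above 0 in both lines. In H82 every treated library was below every untreated one for 7 of those 9 genes. Of the 8 that entered the fit this held for 6, against 51.4% of all genes tested. This follows from the choice of the genes and supports nothing. In H146 the fit held 4 of the 10, of which 1 was lower and 1 higher at a limma adjusted p under 0.05, against 15.5% and 32.5% of 19585 genes (3033 and 6356, and 4961 and 4104 after median of ratios, or 4182 and 4590 after quantile normalization), and 3 of the 4 did not overlap between groups, against 52.9%.

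The order of the 4 groups by mean TPM was the same for OTX2, CRX, NRL and AANAT, with untreated H82 first, then treated H82, then treated H146. Between neighbours in that order, libraries did not overlap at any step for OTX2, overlapped between the H146 groups for CRX, overlapped between the H146 groups for AANAT too, and overlapped from treated H82 downwards for NRL. RBP3 and RCVRN were also highest in untreated H82 and then in treated H82, but were lowest in treated H146, and for both genes treated H82 overlapped untreated H146. GNGT1 had the opposite order of lines, with both H146 groups above both H82 groups. For PDE6B treated H146 was highest and the 3 other groups overlapped. The lines stand in separate tables, so these levels are set side by side and were not tested.

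**Figure D2:**
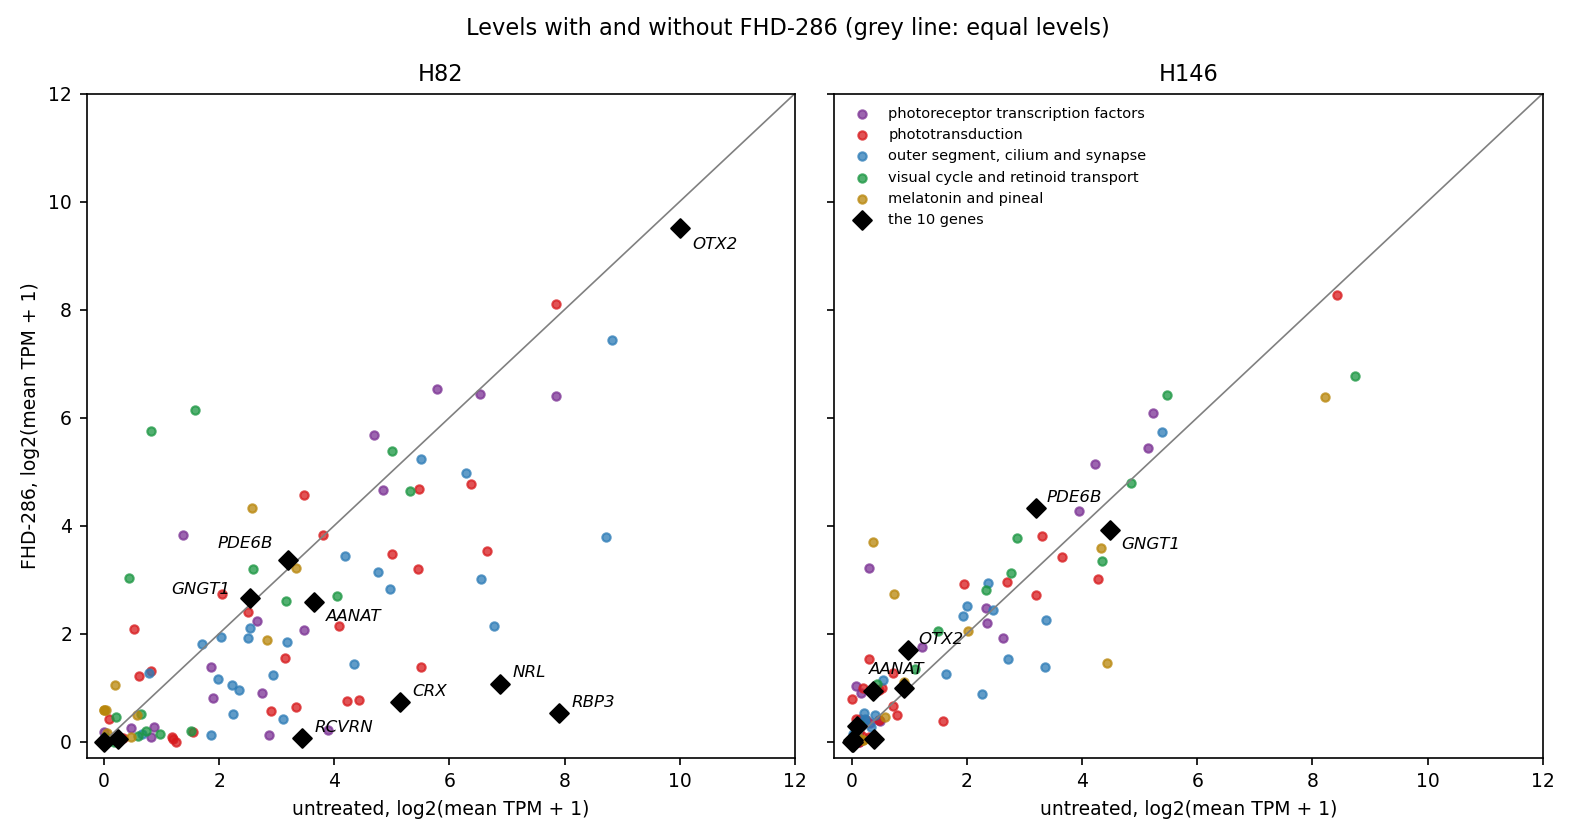
Mean level of each gene with FHD-286 (vertical) against without (horizontal), both as log2(mean TPM + 1), in H82 (left) and H146 (right). Black diamonds are the 10 genes, coloured points are 106 further photoreceptor and pineal genes by list, and the grey line marks equal levels. In H82 RBP3, NRL, CRX and RCVRN lie far under the line and OTX2 next to it, whereas in H146 PDE6B lies above the line and GNGT1 under it.

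The wider programme was followed in 106 further genes in 5 lists. Of 66 that entered the fit in H82, 40 were lower at a limma adjusted p under 0.05 (60.6%, against 45.5% of 19770 genes tested) and 6 higher (9.09%, against 13.1%), with a median log2 change of -1.18 against -0.56 for all genes. The count of lower genes was 22, 23 and 24 without untreated replicate 1, 2 and 3, while 4291 to 4440 genes of all kinds were then lower, and 39 without treated replicate 2. With median of ratios 33 were lower and 12 higher (6212 and 4862 of all genes), and with quantile normalization 27 and 17 (5035 and 5603). Of 45 that entered it in H146, 13 were lower (28.9%, against 15.5%) and 10 higher (22.2%, against 32.5%), with a median of 0.22 against 0.25, and 15 and 7 after median of ratios or 13 and 7 after quantile normalization. A gene can enter the fit through the libraries of 1 group alone. This favours a fall if that group is untreated and a rise if it is treated. In H82 NR2E3, RAX2 and ARR3 entered through untreated libraries only, and DHRS3 through treated ones only. Shares over all genes carry the same limit on entry. The lists were chosen with earlier results of these data known, so their shares are descriptions. Genes named below are the largest changes of each list whose groups did not overlap.

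Photoreceptor transcription factors were mixed. In H82 6 of 13 tested were lower (46.2%, against 45.5% of all genes tested) and 1 higher (7.69%, against 13.1%). Their median of -0.48 lay 0.08 above that of all genes, so this list was near the level of all genes. NR2E3, the rod factor next to NRL, went from 13.4 to 14.1 TPM down to at most 0.221 TPM, RAX2 from 3.01 to 8.06 TPM down to at most 0.211 TPM, and RORA from a mean of 5.67 to 0.855 TPM. LHX2, a factor of the early eye field, rose from a mean of 1.59 to 13.2 TPM. NEUROD1, which defines the class of H82, averaged 230 TPM untreated and 83.6 TPM treated. In H146 1 of 9 was lower (RORA, log2 change -0.71) and 3 were higher, namely LHX4 (2.88), SAMD11 (0.91) and LHX2 (0.83). These shares of 11.1% and 33.3% were near the 15.5% and 32.5% of all genes tested. LHX4 had the opposite sign in H82, with a change of -1.53, and the difference between the lines was not tested.

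Phototransduction genes were lower in H82 in 14 of 20 cases (70%, against 45.5% of all genes tested). They were higher in 1 (5%, against 13.1%), with a median of -1.59. Of the lower genes, ARR3, CNGB1, CNGA3, GUCY2D and GRK1 entered the fit through untreated libraries only. PDE6A fell 27.7-fold (44.2 to 1.59 TPM on average), PDC (phosducin, a partner of transducin subunits) 29.2-fold, and ARR3 (cone arrestin) 25.8-fold. RGS9, which speeds transducin shut-off, rose 1.79-fold. OPN1SW, the opsin of blue cones, was at 43.4, 52.3 and 33.8 TPM in untreated H82 and 30.3, 19.2 and 23.7 TPM in treated H82. PDE6A and PDE6B are partners in 1 enzyme, yet PDE6A was low after treatment in H82 when PDE6B was not. In H146 3 of 9 were lower, namely RGS9 (-1.27), CNGA3 (-1.20) and GNB5 (-0.48), and 3 higher, namely SLC24A1 (0.97), ARR3 (0.56) and OPN1SW (0.50). Each share was 33.3%, against 15.5% lower and 32.5% higher over all genes tested.

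Genes of the outer segment, cilium and synapse gave the highest share of falls in H82, 18 of 22 (81.8%, against 45.5% of all genes tested). Of these genes 0 were higher (against 13.1%), and the median was -1.49. FSCN2, PRCD and CACNA2D4 were among the falls and entered the fit through untreated libraries only. The list was chosen with earlier results of these data known, so its share of falls is a description. AIPL1, a chaperone of the PDE6 enzyme, was at 432, 392 and 437 TPM untreated and at 18.3, 9.30 and 11.0 TPM treated. CACNA1F was at 111, 98.0 and 115 TPM untreated and at 6.79, 0.861 and 2.63 TPM treated, and CDHR1, a cadherin of outer segments, fell 13.2-fold. All 3 were far apart between groups. In H146 4 of 11 were lower (36.4%, against 15.5% of all genes tested) and 0 higher (against 32.5%). CDHR1 (-2.06), PROM1 (-1.40) and SPATA7 (-1.19) were the largest falls.

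Genes of the visual cycle and retinoid transport went the other way in H82, with 2 of 8 lower (25%, against 45.5% of all genes tested). Of the 8, 4 were higher (50%, against 13.1%), and the median was 0.48. TTR (transthyretin) was at 0.794, 0.477 and 1.04 TPM untreated and 31.5, 59.1 and 67.2 TPM treated, and RBP4 (plasma retinol-binding protein) at 3.04, 1.61 and 1.27 TPM untreated and 85.3, 52.4 and 69.7 TPM treated. Both form the carrier of retinol in blood, whereas RBP3 carries it within the eye. DHRS3, which reduces retinal, rose from a mean of 0.348 to 7.14 TPM, and STRA6 (the cellular receptor of RBP4) and RDH13 fell 2.85-fold and 1.58-fold. In H146 2 of 9 were lower, among them STRA6 (-1.02), and 2 were higher, RDH10 (0.89) and RBP4 (0.47). Each share was 22.2%, against 15.5% lower and 32.5% higher over all genes tested. Of melatonin and pineal genes only 3 entered the fit in H82 and 0 passed, with a median of -0.13. In H146 3 of 7 were lower (42.9%, against 15.5%), namely ADRB1 (-2.98), DDC (-1.88) and CREM (-0.74). BSX (2.86) and LHX9 (2.01) were higher (28.6%, against 32.5%).

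**Figure D3:**
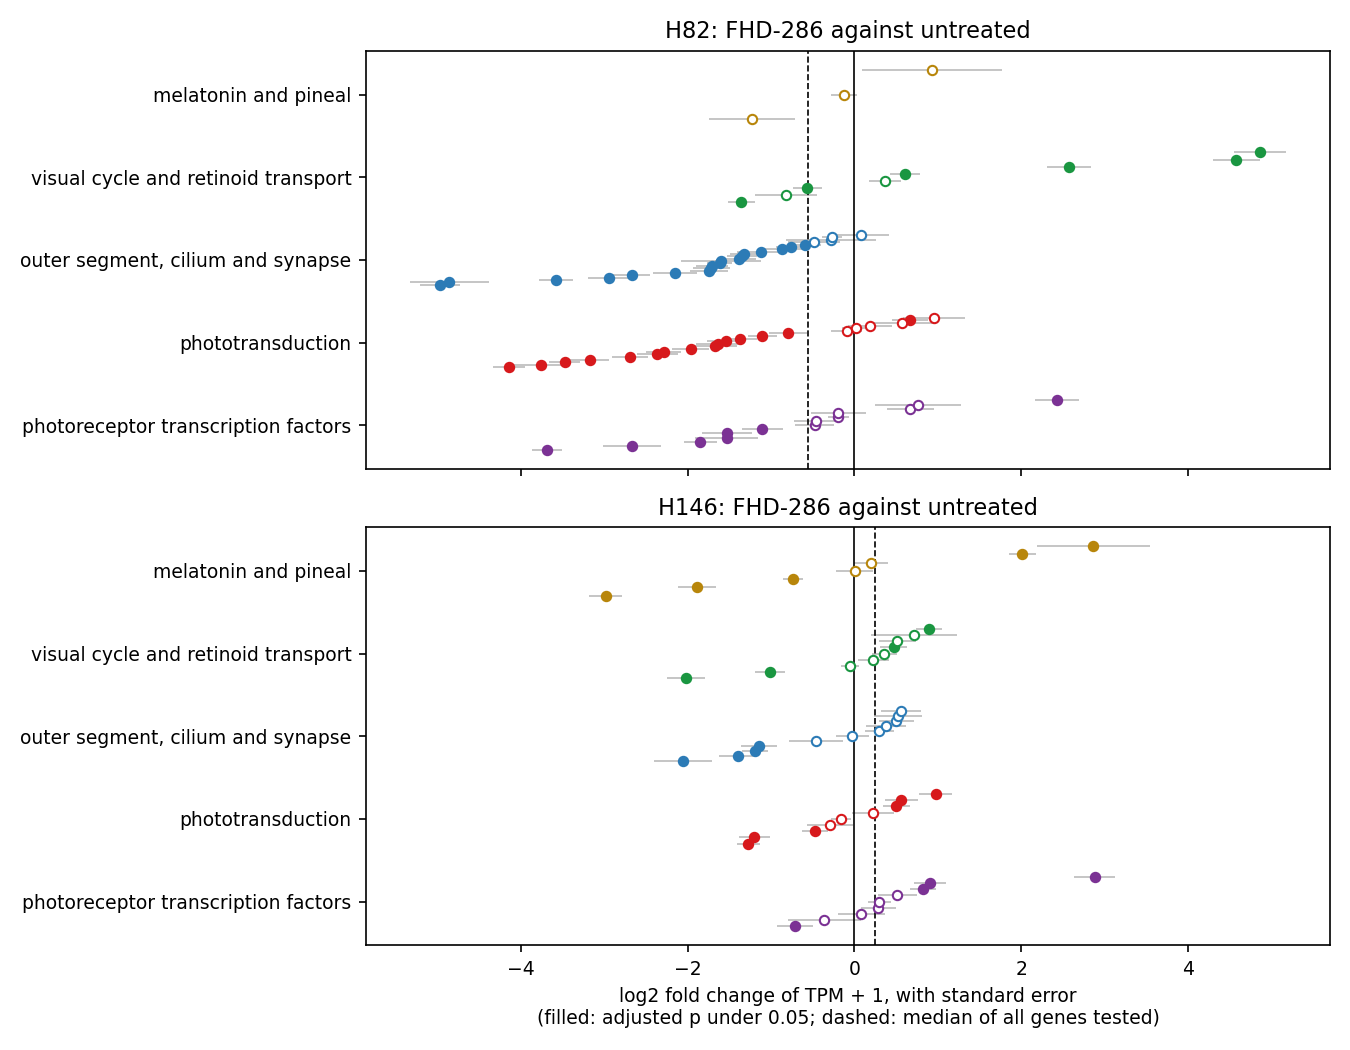
Log2 change of TPM + 1 with its standard error for each gene of the 5 lists that entered the fit, in H82 (top) and H146 (bottom); filled points passed an adjusted p of 0.05 and the dashed line marks the median of all genes tested (-0.56 and 0.25). In H82 the phototransduction and outer segment lists reach from about -5 to 1 with most points left of the dashed line, and TTR and RBP4 lie at the right.

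Markers of other cells were followed in H82, where 45.5% of all genes tested were lower and 13.1% higher. The marker counts were not tested against these shares. Of 8 pigment epithelium markers, 3 entered the fit, 1 was lower and 1 higher, and their sum went from 254 to 289 TPM down to 8.29 to 18.7 TPM. DCT, a melanin enzyme, made up nearly all of the untreated sum (253, 286 and 250 TPM) and less of the treated one (5.13, 3.83 and 6.90 TPM). MITF, the pigment cell factor, was the higher one, with means of 1.03 and 3.42 TPM, whereas RPE65 was at most 1.33 TPM and RLBP1 at most 0.101 TPM in any library. Of 6 bipolar cell markers 2 entered the fit, 1 lower and 1 higher, with sums of 10.1 to 13.6 TPM untreated and 1.26 to 3.07 TPM treated. CABP5 was the lower one, at 8.43, 8.98 and 11.0 TPM untreated and at most 0.462 TPM treated, and PRKCA the higher one, with means of 0.431 and 1.84 TPM. Müller glia markers summed to 368 to 385 TPM untreated and 118 to 237 TPM treated. Of 6 such markers 3 entered the fit, with GLUL lower (means of 363 and 136 TPM) and VIM higher (7.49 and 43.9 TPM). Ganglion cell markers summed to 16.4 to 19.0 and 15.5 to 33.9 TPM (2 of 6 lower, 2 higher). The 6 SCLC and neuroendocrine markers were at 700 to 781 TPM in sum before and 266 to 736 TPM after treatment (3 lower, 1 higher), and POU2F3 and YAP1 together at 0.535 to 0.585 and 1.95 to 2.90 TPM. EPCAM, FOXA2 and INSM1 were listed because earlier results had them high in 1 treated H82 library. Of these 3 markers 2 were higher, FOXA2 and INSM1 (limma adjusted p = 0.0476 and 0.0498). That count follows from the choice and supports nothing. The 3 summed to 13.4 to 17.4 TPM untreated and 36.1 to 365 TPM treated. The part of any of these marker changes in the fall of RBP3 was not tested.

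The same lists were summed in H146, where 15.5% of all genes tested were lower and 32.5% higher. The fit held 4 pigment epithelium, 4 Müller glia, 6 ganglion cell and 5 SCLC markers, and their counts were not tested against these shares. Pigment epithelium markers were at 11.7 to 12.9 and 11.4 to 14.9 TPM without and with drug, with 1 lower and 1 higher, and bipolar markers at 11.7 to 16.3 and 11.0 to 17.3 TPM, of which only PRKCA entered the fit (limma adjusted p = 0.814). Müller glia markers were at 81.1 to 101 and 56.8 to 66.2 TPM (2 lower, 2 higher), ganglion cell markers at 103 to 126 and 66.5 to 123 TPM (2 lower, 3 higher), and SCLC markers at 1441 to 1751 and 1030 to 1289 TPM (2 lower, 0 higher). POU2F3 and YAP1 summed to 0.137 to 0.245 and 0.471 to 0.937 TPM, and EPCAM, FOXA2 and INSM1 to 2405 to 2711 and 1434 to 1835 TPM, with all 3 lower.

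The genes most like RBP3 were sought among 14709 genes that reached 10 TPM in at least 1 library, by Pearson correlation of log2(TPM + 1) over the 13 libraries. The closest were TRBV27 (a T cell receptor beta segment), AC008279.1, RCVRN, RP4-633I8.2 and AC107218.2, each with r = 0.998, and RCVRN thus ranked 3. NRL (r = 0.996) ranked 15 and CRX (r = 0.994) ranked 25, while AANAT had 0.791, OTX2 0.649, PDE6B -0.41 and GNGT1 -0.47. An r of 0.95 or more was found for 396 genes (2.69%), and for 6 of 41 genes of the wider lists (14.6%). The 13 libraries share lines and treatments, and a gene that is high only in untreated H82 has a high r by that alone, so these are descriptions. With Spearman correlation 0 of the 5 closest genes were retained.

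TRBV27 matched RBP3 in level as well as in shape. It was at 202 to 213 TPM in untreated H82, at most 0.989 TPM in treated H82 and listed at 0 in all 7 H146 libraries. AC008279.1, RP4-633I8.2 and AC107218.2 averaged 9.27, 9.77 and 8.92 TPM in untreated H82, as did RCVRN with 9.81 TPM, and none exceeded 0.47 TPM elsewhere.

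**Figure D4:**
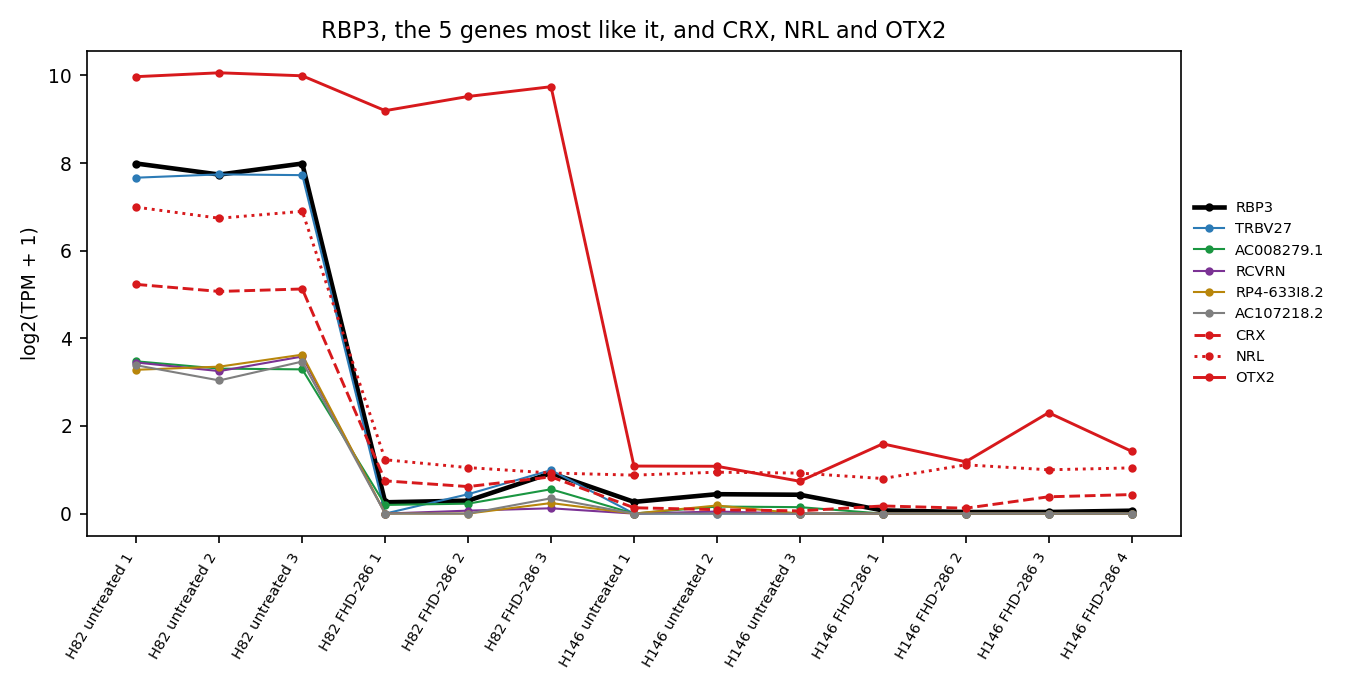
Level as log2(TPM + 1) in each of the 13 libraries for RBP3 (black), the 5 genes with the highest Pearson correlation with it, and CRX, NRL and OTX2 (red); lines join libraries only to guide the eye. RBP3, TRBV27, CRX and NRL drop between untreated and treated H82, whereas OTX2 stays above 585 TPM in H82 and is under 4 TPM in H146.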

How the data were processed

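RNA sequencing of 13 libraries was used (H82, 3 untreated and 3 treated; H146, 3 untreated and 4 treated). Per the methods, the authors mapped reads to hg38 and counted them with STAR and the GENCODE annotation (the submitters' processing notes also name Trim Galore 0.4.4), compared groups with DESeq2 and deposited TPM per gene, 1 table per line. Counts and read depth were not used here, and how gene length was taken is not stated in the sources used here. TPM were transformed as log2(TPM + 1), and those reaching 1 TPM in 3 or more of a line's libraries were tested there with limma 3.58.1 in R 4.3.3 (trend, Benjamini-Hochberg over all genes tested, two-sided, threshold 0.05). Genes below the filter were compared in H146 with exact permutation tests of mean log2(TPM + 1). Other work was done in Python 3.11.15 with scipy 1.17.1. The fit was tested on simulated data first.

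The 10 genes and the lists were chosen with earlier results of these data known. Genes named from the 5 wider lists were, per list and line, up to 3 largest falls and rises past the threshold without overlap, plus the 5 genes most like RBP3; a few items are not reported here. NEUROD1, OPN1SW and LHX4 in H82 and the marker values were added after their values were seen. Gene positions are from GENCODE release 44 (hg38) and promoter windows from RefSeq (GRCh38.p14). Alternatives were a pseudocount of 0.1, no filter, scaling by median of ratios or quantiles, a replicate block, unscaled ratios of means, and leaving out each library.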

Additional observations from a re-analysis of the deposited data

Results flagged for a closer look

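SAG in treated H146 had 1 library apart from the other 3, with a gap of 0.848 of the group's whole range, above Dixon's critical value for 4 samples. The levels there were 0.0717 TPM at most. Of 8 such groups of 4 checked this was the single case. Chance gives about 1 in 20 for each group checked, and so more often for at least 1 among 8.

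OTX2 differed in direction between the lines. Its log2 change was -0.522 in H82, where every treated library was below every untreated one, and 0.658 in H146, where every treated library was above. The H146 change did not pass the test (limma adjusted p = 0.0795). Relative to the median of all genes, which was -0.56 in H82 and 0.25 in H146, the changes were 0.04 and 0.41, and the H82 change was -0.03 after median of ratios. The difference between the lines was not tested.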

How the results depend on the processing

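Counts of calls moved with scaling and with the number of libraries. The count of all genes lower in H82 (8996) was 5035 after quantile normalization and 4291 to 9957 when 1 library was left out, and the count higher (2588) was 4862 after median of ratios, 5603 after quantile normalization and 1676 to 3503 without 1 library. In the wider lists 40 lower genes became 22 to 40 without 1 library, and 6 higher genes became 12 after median of ratios, 17 after quantile normalization and 3 to 9 without 1 library. In H146 3033 lower genes became 4961 and 6356 higher genes 4104 after median of ratios, and the lower count was 1812 to 3729 without 1 library. Fits without 1 library rest on fewer samples, and otherwise the cause was not tested. The balance of lower to higher genes turned in H146 after median of ratios and in H82 after quantile normalization.

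The RBP3 change in H82 was -9.03 with a pseudocount of 0.1, -7.10 after median of ratios, -9.09 as the log2 ratio of mean TPM, and -7.63 to -7.30 without 1 library. In H146 it was -0.33 and past the threshold without the filter, -0.44 after quantile normalization and -3.03 as the ratio of means. With the filter RBP3 did not enter the H146 fit, and its adjusted exact permutation p was 0.286. Of the 5 genes most like RBP3, 0 were shared under Spearman correlation. Directions of the H146 calls of GNGT1 and PDE6B held under all alternatives run. Single genes of the wider lists were not run under the alternatives. Same-numbered replicates did not deviate together (correlations of -0.11 to 0.03), so the numbers were not treated as pairs. With a replicate block, 8625 genes were lower in H82, RBP3 stood at -7.41 in H82 and -0.33 in H146, and the H146 calls of GNGT1 (limma adjusted p = 0.0408) and PDE6B (0.00497) were kept.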
